A study of Sus scrofa with 17 samples.

Results

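Cytoplasmic ribosomal proteins are the protein components of the ribosomes that translate nuclear-encoded messages, and their genes were followed here in the right ventricle of pigs. The genes were chosen by name: symbols that begin with RPL or RPS and a number, or that read RPLP0, RPLP1, RPLP2 or RPSA. Of 71 such rows in the count table, 10 RPS6K kinases and 2 rows of the form RPL7L1 were left out. This gave 59 genes of 35670 rows, and 58 of them had enough counts to be tested, among 15884 genes tested in all. The remaining one, RPL10L, had no counts. The 58 comprised 27 proteins of the large subunit, 27 of the small subunit and the 3 paralogues RPL3L, RPL36AL and RPS27L. The last, RPS19BP1, matched the rule by name only and encodes a protein that binds RPS19.

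The series holds RNA sequencing of right ventricular myocardium from 17 pigs in a model of right ventricular pressure overload. In the multidose group 7 animals had received umbilical cord blood mononuclear cells (UCB-MNC) repeatedly, in the single-dose group 5 animals had received them once, and 5 control animals had received vehicle. All 3 groups therefore share the pressure overload, and no group without it was analysed here. The series text states that replicates are individual animals. It names sex, weight and batch as recorded, without giving them per library, and doses and harvest times are not given in the labels. The series title describes the repeated doses as intramyocardial.

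A ribosome is built from a large subunit, which joins amino acids, and a small subunit, which reads the message. The messages of most ribosomal proteins, and of several translation factors, begin with a pyrimidine-rich stretch (the 5′ TOP motif) through which growth signalling by mTOR controls their translation as a group. Working muscle in addition expresses RPL3L, a paralogue that takes the place of RPL3 in ribosomes of heart and skeletal muscle. Genes of this family have many near-identical processed copies in mammalian genomes, and counting could have split or lost reads between them, so the level of each gene is uncertain to that extent. In bulk tissue, fewer cells of a type and less RNA per cell cannot be told apart.

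The libraries held 21754800 to 61144663 counts, and a ribosomal subunit gene had no fewer than 4167 counts in any library. The names of 5 libraries (multidose 1 to 4 and single-dose 1) begin with M1 and those of the other 12, all controls among them, with M8 or M9. What the names stand for is not in the labels. Of the M1 libraries, 4 held fewer than 25000000 counts, and multidose 4 held 40969168. The name of most libraries ends in _R. It does not in those 4 shallow libraries, in multidose 5 or in control 3. Defining markers of heart tissue were present throughout, with 66730 to 88450 CPM (counts scaled to a common library total) summed over 10 cardiomyocyte markers in the M1 libraries and 47590 to 84860 CPM in the others.

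Before any comparison, 3 libraries stood apart in these genes. Control 3, the deepest library, had the lowest value of all 17 libraries for 57 of the 58 genes, where 14% of all genes tested were lowest there. Multidose 1 had the highest value for 53 of the 58, but the share of all genes highest there is not given here. In multidose 5 the genes did not move together: their deviations from their own means had an SD of 0.41 on the log2 scale, against 0.08 to 0.29 in each other library. RPS27L (122 CPM) and RPS19BP1 (28.0 CPM) were highest of all libraries there, while RPL3 (218 CPM) was lowest of all.

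The 58 genes together took 4.12%, 3.31%, 3.39%, 3.28%, 1.97%, 2.13% and 2.40% of all counts in multidose 1 to 7. They took 3.59%, 2.57%, 2.05%, 2.44% and 2.47% in single-dose 1 to 5, and 2.89%, 2.15%, 1.27%, 2.58% and 2.48% in control 1 to 5. The 5 M1 libraries were the 5 highest. The M1 libraries averaged 3.54% ± 0.34 (SD, n = 5), with a range from 3.28% to 4.12%, and the others 2.28% ± 0.41 (SD, n = 12), with a range from 1.27% to 2.89%. The classes did not overlap, and within the multidose group the M1 libraries averaged 3.52% ± 0.40 (SD, n = 4) and the others 2.17% ± 0.22 (SD, n = 3). By dosing group the means were 2.94% ± 0.79 (SD, n = 7) for multidose, 2.62% ± 0.58 (SD, n = 5) for single dose and 2.28% ± 0.62 (SD, n = 5) for control, and the groups overlapped. Without control 3 the control mean was 2.53% ± 0.31 (SD, n = 4).

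**Figure D1:**
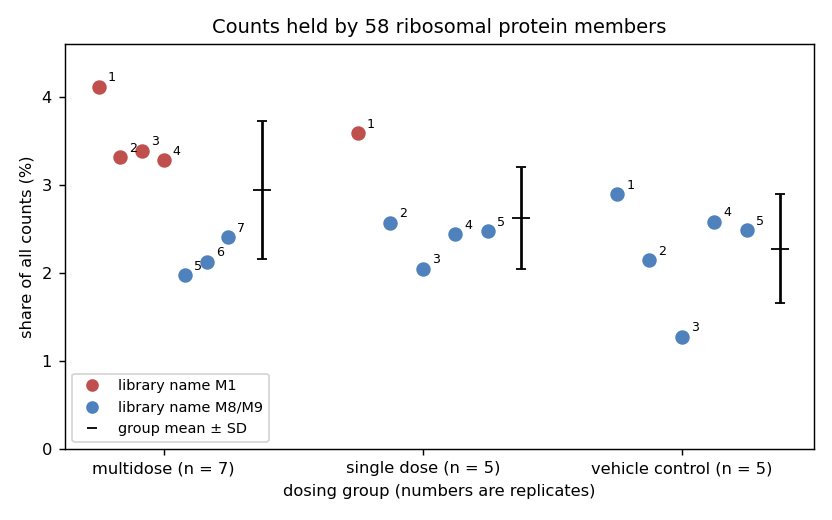
Share of all counts (%, vertical axis) held by the 58 genes in each library, by dosing group, with M1 libraries marked apart from M8 and M9 libraries and replicate numbers beside the points. The 5 M1 libraries lie between 3.28% and 4.12%, above every other library, and control 3 is lowest at 1.27%.

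The genes rose and fell together from library to library. Over the 17 libraries the median SD of a gene was 0.48 on the log2 CPM scale, against 0.35 for all genes tested, and 0.16 once the median gene of each library was taken out. The smallest SD after that step was 0.047 for RPS26, a small-subunit protein near the exit of the message channel, and 0.050 for RPL35 of the large subunit. The largest were 0.38 for RPS19BP1, 0.36 for RPL3L, 0.36 for RPS27L and 0.34 for RPL3. RPL3, 2 of the paralogues and RPS19BP1 thus departed most from the common pattern. The median gene, set to its mean over the libraries, lay between 0.36 and 0.78 in the M1 libraries, between -0.31 and 0.09 in the M8 and M9 libraries other than control 3, and at -1.22 in control 3.

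**Figure D2:**
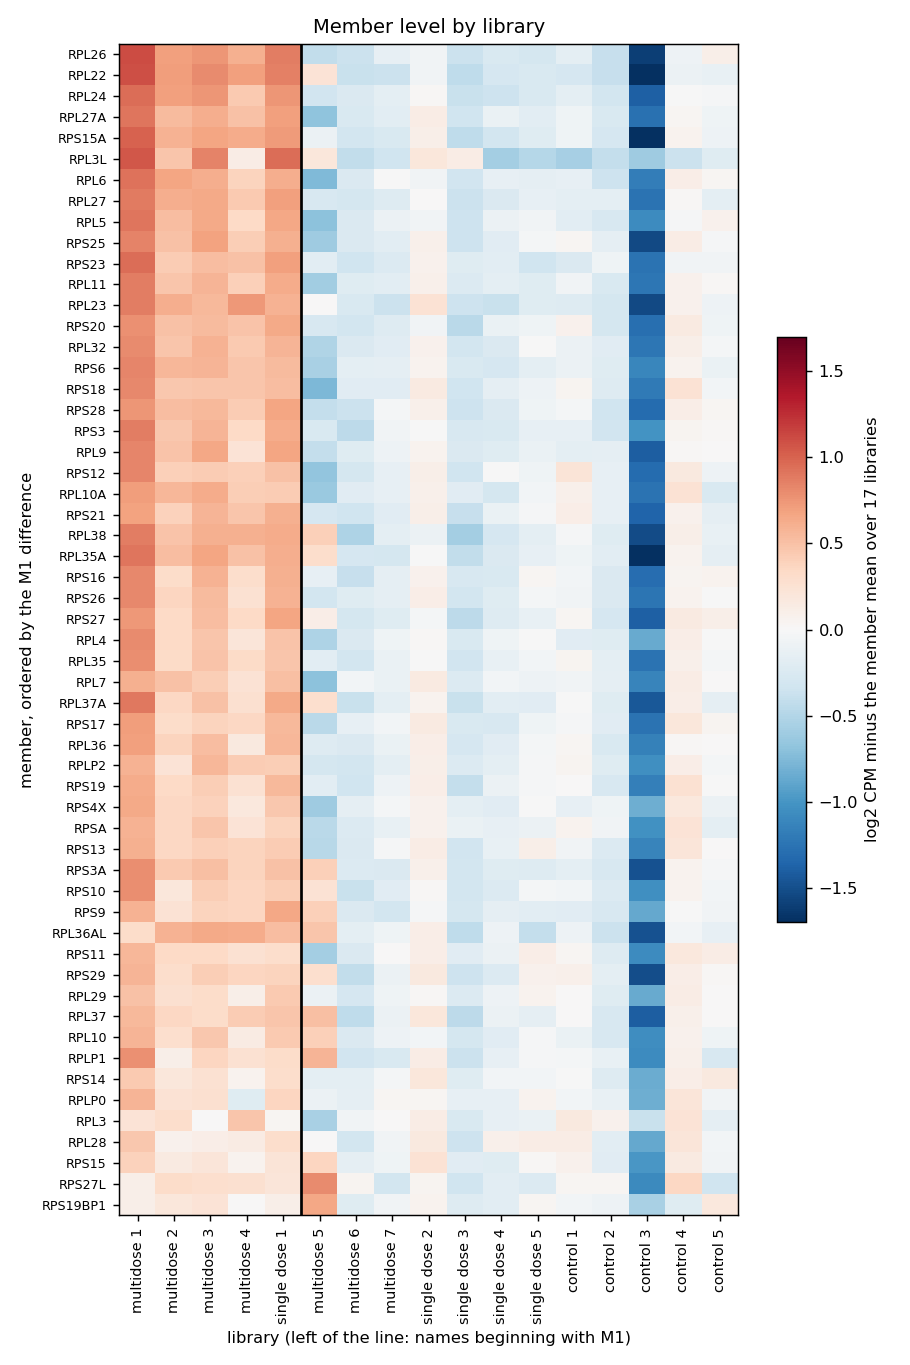
Log2 CPM of 56 of the 58 genes (rows, ordered by the M1 difference) in each of the 17 libraries (columns, M1 libraries to the left of the line), set to the gene's own mean. Most rows are high in all M1 libraries, and the column of control 3 is the lowest for 55 of the 56 genes drawn.

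The first comparison set the M1 libraries against the M8 and M9 libraries with the dosing group in the model. It therefore rests on 4 against 3 multidose and 1 against 4 single-dose libraries, since every control carries an M8 or M9 name. By edgeR's quasi-likelihood test with Benjamini-Hochberg adjustment over all genes, 40 of the 58 genes were higher in the M1 libraries and 0 were lower at an adjusted p under 0.05. Over all genes tested 5.92% were called higher and 8.06% lower. The median difference of the 58 was 0.67 (log2 fold change, quartiles 0.53 and 0.83), and that of all genes was -0.01. All 58 values were positive, as were 48.6% of those of all genes. The large subunit had 19 of 27 genes called (median 0.76), and the small subunit 20 of 27 (median 0.66). Counted without a fit, in 39 of the 58 genes every M1 library lay above every other library, against 2.73% of all genes, and within the multidose group this held for 44 of 58, against 10% of all genes. Single-dose 1 lay above the other single-dose libraries in 55 of the 58, against 27.5% of all genes.

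The count of 40 moved with single libraries and with the model. It was 11 without single-dose 1, 21 without multidose 6, 25 without multidose 1 and 49 without control 3, with a median of 0.62 to 0.72 over the fits that left out 1 library. Shares of all genes called in these fits are not given here, so a change particular to these genes cannot be told from a general one. With the log2 total count as a further covariate 0 of the 58 were called (median 0.46, 2 at an unadjusted p under 0.05), and without the 4 libraries under 25000000 counts, where multidose 4 is the only M1 library, 0 were called (median 0.53, 2 at an unadjusted p under 0.05). Depth and name largely coincide in these libraries and cannot be told apart. After thinning every library to the shallowest total 41 were called, with the share of all genes not given here. Multidose 4, at 40969168 counts, was shallower than each of the M8 and M9 multidose libraries (42404702 to 48330971 counts). It lay above their mean in 56 of 58 genes, with a median difference of 0.53, where the median of all genes was -0.0037. These are values of 1 library, and the share of all genes above that mean is not given here. The part of depth in the difference by name was not tested.

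**Figure D3:**
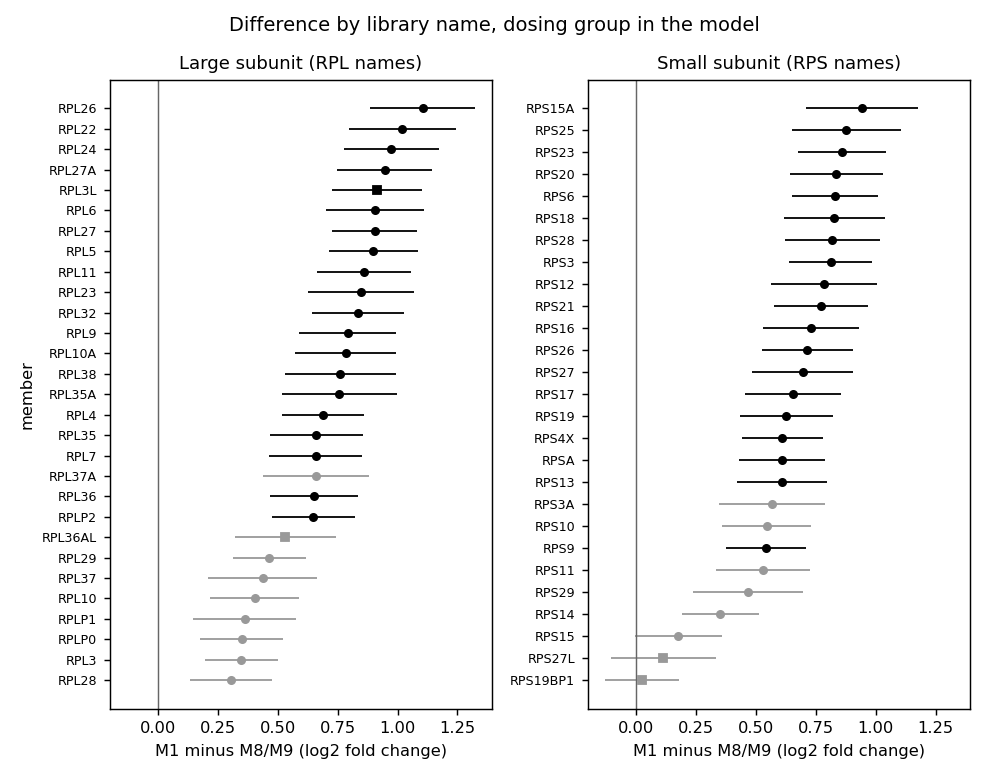
Difference between M1 and M8/M9 libraries (log2 fold change, dosing group in the model, horizontal axis) for 56 of the 58 genes, with bars for the SE, black where the adjusted p by edgeR was under 0.05 and grey otherwise; squares mark paralogues and RPS19BP1. All values lie above 0, from 0.02 for RPS19BP1 to 1.10 for RPL26, and 39 are black.

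RPL26 (ENSSSCG00000028850, Sscrofa11.1 chromosome 12, 53548313 to 53553453), a large-subunit protein beside the exit of the peptide tunnel, had the largest difference. It measured 778, 584, 607 and 548 CPM in multidose 1 to 4 and 659 CPM in single-dose 1. In multidose 5 to 7 it measured 270, 281 and 327 CPM, in single-dose 2 to 5 348, 281, 303 and 295 CPM, and in control 1 to 5 322, 276, 120, 341 and 388 CPM. Every M1 library lay above every other library. The difference was 1.10 (SE 0.22, adjusted p = 0.00516 by edgeR), from a mean of 635 ± 89.3 CPM (SD, n = 5) in the M1 libraries and 296 ± 65.8 CPM (SD, n = 12) in the others.

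RPL22 (ENSSSCG00000054047, chromosome 6, 67092892 to 67102086), an RNA-binding protein of the large subunit, was next. It measured 465.8, 357, 378 and 353 CPM in multidose 1 to 4 and 394 CPM in single-dose 1. It measured 256, 167 and 169 CPM in multidose 5 to 7, 209, 162, 178 and 181 CPM in single-dose 2 to 5, and 178, 166, 65.4, 203 and 199 CPM in control 1 to 5. The classes were again apart, with a difference of 1.02 (SE 0.22, adjusted p = 0.00862 by edgeR). RPL24 (ENSSSCG00000011952, chromosome 13, 157411933 to 157418663), which helps to bridge the subunits, rose by 0.97 (SE 0.20, adjusted p = 0.00602 by edgeR), from 571 to 810 CPM in the M1 libraries and 159 to 426 CPM in the others. RPL27A (ENSSSCG00000014569, chromosome 9, 708531 to 712410), also of the large subunit, rose by 0.95 (SE 0.20, adjusted p = 0.00742 by edgeR). Its mean was 848 ± 99.3 CPM (SD, n = 5) in the M1 libraries and 456 ± 97.1 CPM (SD, n = 12) in the others. RPL4 (ENSSSCG00000004945, chromosome 1, 164476269 to 164481765), which lines the peptide tunnel, rose by 0.69 (SE 0.17, adjusted p = 0.0154 by edgeR). Its M1 libraries lay between 875.7 and 1325 CPM and the others between 420 and 822 CPM. RPL7 (ENSSSCG00000032111) of the large subunit rose by 0.66 (SE 0.19, adjusted p = 0.0325 by edgeR). RPL10 (ENSSSCG00000035997, chromosome X, 124927249 to 124929791), which joins late in the making of the large subunit, had a value of 0.40 (SE 0.19) and did not pass (adjusted p = 0.154 by edgeR). Multidose 5, at 1561 CPM, lay within the 1292 to 1757 CPM of the M1 libraries for RPL10.

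The stalk of the large subunit, which recruits translation factors, is formed by RPLP0, RPLP1 and RPLP2. RPLP2 (ENSSSCG00000012842) rose by 0.65 (SE 0.17, adjusted p = 0.0216 by edgeR), with 403 to 515 CPM in the M1 libraries and 165 to 368 CPM in the others. RPLP0 (ENSSSCG00000036014, chromosome 14, 40219196 to 40223943), the base of the stalk, measured 2009, 1600, 1628 and 1169 CPM in multidose 1 to 4 and 1738 CPM in single-dose 1. It measured 1253, 1213 and 1383 CPM in multidose 5 to 7, 1380, 1226, 1224 and 1403 CPM in single-dose 2 to 5 and 1310, 1234, 759, 1561 and 1293 CPM in control 1 to 5. Multidose 4 lay below most M8 and M9 libraries, and the value of 0.35 (SE 0.17, adjusted p = 0.185 by edgeR) did not pass. RPLP1 (ENSSSCG00000004970) had a value of 0.36 (SE 0.22, adjusted p = 0.272 by edgeR), with multidose 5 at 1165 CPM.

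In the small subunit, RPS6 (ENSSSCG00000005169, chromosome 1, 203444360 to 203447643), the protein that S6 kinases phosphorylate, showed the pattern plainly. It measured 1129, 940, 951 and 883 CPM in multidose 1 to 4, 927 CPM in single-dose 1, 435, 567 and 575 CPM in multidose 5 to 7, and 665, 530, 524 and 569 CPM in single-dose 2 to 5. The controls measured 593, 550, 296, 666 and 586 CPM. No M8 or M9 library reached the M1 libraries, and the difference was 0.83 (SE 0.18, adjusted p = 0.00805 by edgeR). RPS27 (ENSSSCG00000031838) rose by 0.70 (SE 0.21, adjusted p = 0.0368 by edgeR). RPSA (ENSSSCG00000037236), also known as the laminin receptor, rose by 0.61 (SE 0.18, adjusted p = 0.0322 by edgeR). The smallest value among subunit proteins was that of RPS15 (ENSSSCG00000033169), in the head of the small subunit, at 0.18 (SE 0.18, adjusted p = 0.546 by edgeR). Its M1 and M8 or M9 libraries overlapped, and the value in multidose 5, 627 CPM, exceeded those of 4 of the 5 M1 libraries.

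The same difference was computed within each dosed group. The 4 M1 multidose libraries exceeded the 3 others of that group by a median of 0.71 over the 58 genes, and single-dose 1 exceeded the other 4 of its group by 0.67. All 58 values were positive in each, where the medians of all genes were -0.0137 and -0.01. The shares of all genes that were positive are not given here. The 58 genes moved together, so their signs are not separate observations. In edgeR's interaction test 0 of the 58 genes differed between the 2 groups (0% of all genes did, and 0 of the 58 had an unadjusted p under 0.05), with 24 values positive and a median of -0.03. Only 1 single-dose library is an M1 library, so this test has little precision. Across the 58 genes, which are not independent replicates, the sizes of these differences had a Pearson r of 0.74 and a Spearman rho of 0.69. Across all 15884 genes, r was 0.56.

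The difference was also set beside that of other genes with like level or length. Among 583 other genes within the range of mean CPM of the subunit genes (180 to 1375 CPM), 49 were higher and 54 lower in the M1 libraries, with a median of 0.00. The subunit genes are compact, with a median genomic span of 3524.5 bases against 29625 for all genes with a RefSeq position. Among 4094 other genes within their range of span (1157 to 17466 bases), 190 were higher and 442 lower, with a median of -0.07. In the 195 genes within both ranges 11 were higher and 17 lower, with a median of 0.03.

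Ribosomal protein rows that the naming rule could not reach lay on the same side. Of the rows without a symbol, 9 were ribosomal proteins according to a reference list of gene names. Of these 9, 5 were higher in the M1 libraries and 0 lower, with a median of 0.71. RPL14 rose by 1.06 (SE 0.21, adjusted p = 0.00602 by edgeR), RPS27A, which is made as a fusion with ubiquitin, by 0.92 (SE 0.23, adjusted p = 0.0171 by edgeR) and RPL13A by 0.56 (SE 0.17, adjusted p = 0.0378 by edgeR). RPS2 did not pass, at 0.11 (SE 0.19, adjusted p = 0.744 by edgeR). Of 5 further ribosomal genes with other names or paralogue names 3 were higher and 0 lower. FAU, whose product is a ubiquitin-like protein fused to RPS30, rose by 0.62 (SE 0.16, adjusted p = 0.0204 by edgeR), and RACK1, a scaffold on the small subunit, by 0.62 (SE 0.18, adjusted p = 0.0294 by edgeR). The paralogue RPL26L1 stood at 0.09 and RPL7L1 at 0.19.

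Among translation factors and other genes with 5′ TOP messages 11 of 15 tested were higher in the M1 libraries and 0 lower, beside 5.92% and 8.06% of all genes, with a median of 0.57. EIF3L, a subunit of the initiation factor eIF3, rose by 0.91 (SE 0.16, adjusted p = 0.00348 by edgeR), and BTF3, part of the complex that meets nascent chains at the ribosome, by 0.76 (SE 0.14, adjusted p = 0.00362 by edgeR). Another eIF3 subunit, EIF3A, had a value of -0.12. Of 38 genes that build ribosomes 2 were higher and 3 lower, with a median of 0.02, which is near the 5.92% and 8.06% of all genes called in those directions. The calls are named by the rule and do not set the list apart. NPM1, a nucleolar chaperone, rose by 0.61 (SE 0.13, adjusted p = 0.00805 by edgeR), and POLR1D, a subunit shared by RNA polymerases I and III, by 0.44 (SE 0.12, adjusted p = 0.0241 by edgeR). RRP12, which acts in subunit export, fell by 0.74 (SE 0.16, adjusted p = 0.00848 by edgeR), and BOP1, which acts in processing of large-subunit RNA, fell by 0.60 (SE 0.13, adjusted p = 0.0072 by edgeR). The growth-signalling list had 2 of 20 genes higher and 4 lower, beside the same 5.92% and 8.06% of all genes, with a median of -0.24. AKT1S1, an inhibitor of the mTOR complex, rose by 0.45 (SE 0.11, adjusted p = 0.0116 by edgeR), and PDCD4, an inhibitor of initiation, by 0.52 (SE 0.14, adjusted p = 0.0202 by edgeR). RPTOR, a subunit of mTOR complex 1, fell, with a value of -0.58 (SE 0.15) and an edgeR adjusted p of 0.017, and so did EIF4E, the cap-binding factor, with a value of -0.44 (SE 0.12) and an edgeR adjusted p of 0.0232.

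Some cell type markers were called in the comparison by library name, where 5.92% of all genes were higher and 8.06% lower (13.5% and 16.4% at an unadjusted p under 0.05). Of 8 fibroblast markers 3 were higher (summed level 4564 to 8240 CPM in the M1 libraries, 2823 to 6543 CPM in the others), and of 6 endothelial markers 1 (877 to 1106 CPM against 732 to 1383 CPM). Lower values were called for 2 of 7 markers of T and natural killer cells (10.1 to 15.9 CPM against 14.7 to 48.1 CPM). Of 4 red blood cell markers 1 was higher (96.8 to 638 CPM against 25.9 to 505.5 CPM), and of 2 atrial markers 1 was lower (465 to 1294 CPM against 1200 to 5973 CPM). None of 10 cardiomyocyte markers (3 at an unadjusted p under 0.05) and none of 6 macrophage markers (172 to 275 CPM against 160 to 459 CPM; 0 at an unadjusted p under 0.05) was called. At an unadjusted p under 0.05, 4 of 8 fibroblast, 2 of 6 endothelial and 3 of 4 red blood cell markers were higher, while 6 of 7 markers of T and natural killer cells and 1 of 2 atrial markers were lower. No tested marker was at 0 in any library. Mitochondrially encoded genes took 19.2% ± 1.91 of counts in the M1 libraries (SD, n = 5) and 17.5% ± 2.88 in the others (SD, n = 12). The part of these markers in the ribosomal difference was not tested.

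Control 3 lay far below the other controls. All 58 genes were lowest of the 5 controls there, against 25.4% of all genes, and the median difference from the mean of the other 4 controls was -1.15 on the log2 CPM scale. The gap was widest for RPL35A of the large subunit, which measured 62.0 CPM in control 3 and 203, 188, 223 and 192 CPM in control 1, 2, 4 and 5, a difference of -1.69. RPS15A of the small subunit measured 91.2 CPM there and 249 to 318 CPM in the other controls, a difference of -1.64. The gap was narrowest for RPL3L (-0.21) and RPL3 (-0.46). In control 3 mitochondrially encoded genes took 12.4% of counts, the lowest share of the 17 libraries, and the 10 cardiomyocyte markers summed to 69040 CPM, within the 47590 to 73760 CPM of the other controls. T and natural killer cell markers summed to 27.6 CPM there and to 14.7 to 48.1 CPM in the other controls, and the translation genes to 4627 CPM against 5840 to 7825 CPM. The part of depth and of mitochondrial share in these low values was not tested.

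The comparison of multidose with control asks what repeated doses of cord blood cells change in the pressure-loaded ventricle. By edgeR 0 of the 58 genes passed an adjusted p under 0.05, and 0% of all genes tested did. All 58 values were positive, as were 49.3% of all genes, with a median of 0.47. At an unadjusted p under 0.05 stood 20 of the 58, all higher in multidose, where 6.74% of all genes were higher and 5.83% lower at that level. In 0 of the 58 did every multidose library lie above every control, against 0.145% of all genes. Among the M8 and M9 libraries, no member (0 of 58) had every dosed library above every control, against 0.101% of all genes.

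That median moved with the choice of libraries and with terms for library name or depth. Without control 3 it was 0.30, and without the 4 libraries under 25000000 counts, all M1 libraries from dosed animals, it was 0.17. With the log2 total count in the model it was -0.00, with 27 of 58 values positive. With the M1 name in the model it was 0.01, with 33 of 58 values positive, and the fit to the M8 and M9 libraries alone gave -0.01, with 27 positive. In those libraries without control 3 it was -0.16, with 13 positive, and in the M8 and M9 libraries with the suffix _R it was -0.15. Within the M1 libraries no value could be had, since they hold no control.

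**Figure D4:**
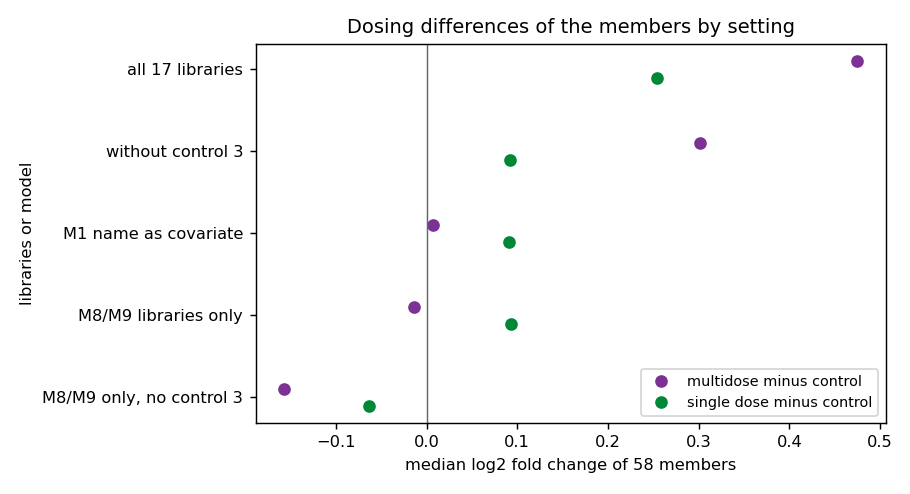
Median log2 fold change of the 58 genes (horizontal axis) for multidose and for single dose against control, which share the control libraries, under 5 choices of libraries or model (vertical axis). Multidose minus control moves from 0.47 in all libraries to -0.01 in the M8 and M9 libraries and -0.16 when control 3 is also left out, and 0 of the 58 passed in any of these fits.

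RPL36AL, RPL22 and RPL3L had the smallest p for multidose against control. RPL36AL (ENSSSCG00000005006, chromosome 1, 179476638 to 179477820), a paralogue of RPL36A, measured 113, 137, 141, 140, 126, 81.04 and 85.9 CPM in multidose 1 to 7. The controls measured 85.1, 70.4, 32.3, 87.5 and 82.2 CPM. The first 5 multidose libraries lay above all controls and the last 2 did not. Its value was 0.72 (SE 0.23, adjusted p = 0.366 by edgeR). The M8 and M9 libraries gave 0.43, or 0.26 without control 3. For RPL22 the multidose mean was 307 ± 112.6 CPM (SD, n = 7) and the control mean 162 ± 56.3 CPM (SD, n = 5), with a value of 0.92 (SE 0.32, adjusted p = 0.366 by edgeR). Its value was 0.27 in the M8 and M9 libraries, 0.08 in these without control 3 and -0.16 in those with the suffix _R. RPL3L stood at 0.79 (SE 0.27, adjusted p = 0.366 by edgeR). Without the M1 libraries it stood at 0.25.

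The comparison of single dose with control asks what 1 administration of the cells changes. By edgeR 0 of the 58 genes passed, and 0% of all genes did. The median was 0.25 with 57 of 58 values positive, against 50.4% positive of all genes, and 0 of the 58 had an unadjusted p under 0.05, where 2.42% of all genes were higher and 2.84% lower at that level. RPL3L had the smallest p, at 0.57 (SE 0.29, adjusted p = 0.891 by edgeR), followed by RPL22 at 0.47 (SE 0.33) and RPS9, a small-subunit protein, at 0.30 (SE 0.22). Without single-dose 1 these values were 0.28, 0.17 and 0.09. RPS9 measured 519, 325, 267, 295 and 291 CPM in single-dose 1 to 5 and 289, 272, 179, 327 and 315 CPM in control 1 to 5. Only single-dose 1, the M1 library, lay outside the range of the controls. The median was 0.10 without single-dose 1, 0.09 in the M8 and M9 libraries, 0.09 without control 3 and -0.06 with both left out, where RPS9 stood at -0.03. These controls also served in the comparison with multidose.

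The comparison of multidose with single dose asks whether the number of doses matters. By edgeR 0 of the 58 genes passed, and 0% of all genes did. The median was 0.21 with 56 of 58 values positive, where 50.5% of all genes were positive. At an unadjusted p under 0.05 stood 0 of the 58, and 0.888% of all genes were higher and 1.22% lower at that level. RPL36AL stood at 0.39 (SE 0.23), RPS27L at 0.34 (SE 0.21) and RPL38 at 0.43 (SE 0.28). By edgeR the adjusted p was 1 for all 3. RPL38 (ENSSSCG00000017239) of the large subunit measured 405, 312, 340, 337, 294, 155 and 198 CPM in multidose 1 to 7. It measured 346, 208, 149, 183 and 200 CPM in single-dose 1 to 5. The groups overlapped throughout, and single-dose 1 lay among the M1 multidose libraries. In the M8 and M9 libraries the median was -0.10, with 16 values positive. With single libraries left out it was 0.10 without multidose 1, 0.14 without single-dose 3 and 0.38 without single-dose 1. RPL38 stood at 0.66 without single-dose 1 and RPS27L at 0.22 without multidose 5.

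Other genes of translation gave the same count in the dosing comparisons. Of 15 translation genes with 5′ TOP messages 0 passed for multidose against control, 13 were positive and the median was 0.41. Of 38 genes of ribosome building 0 passed, with 19 positive and a median of 0.01, and of 20 growth-signalling genes 0 passed, with 5 positive and a median of -0.20. At an unadjusted p under 0.05 in that comparison, 8 translation genes were higher and 0 lower. For ribosome building 3 were higher and 2 lower, and for growth signalling 1 was higher and 3 lower. Of all genes 6.74% were higher and 5.83% lower at that level. Of the 10 cardiomyocyte markers 0 passed and 9 were positive (median 0.43), and of the 7 markers of T and natural killer cells 0 passed and 0 were positive (median -0.69). At an unadjusted p under 0.05 by edgeR, 4 of the 10 cardiomyocyte markers were higher and 0 lower. Of the 7 markers of T and natural killer cells, 0 were higher and 3 lower at that level. In the other marker lists, 1 of 6 endothelial and 1 of 6 macrophage markers were lower, and 0 were higher. The part of these markers in the ribosomal values was not tested. DESeq2 and limma-voom also called 0 of the 58 ribosomal genes in each of the 3 dosing comparisons.

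RPL3 sits near the centre of peptide bond formation, and RPL3L is its muscle paralogue. RPL3L (ENSSSCG00000032657, chromosome 3, 40004907 to 40016702) measured 264, 176, 228, 139, 145, 94.6 and 100.2 CPM in multidose 1 to 7. It measured 244, 145, 138, 84.8 and 90.6 CPM in single-dose 1 to 5, and 85.7, 95.4, 83.6, 98.1 and 109 CPM in control 1 to 5. The controls were close together and low, and in both dosed groups the values were spread upward from that level. RPL3 (ENSSSCG00000040494, chromosome 5, 8922697 to 8929768) measured 375, 392, 322, 445, 218, 306 and 321 CPM in multidose 1 to 7. It measured 329, 348, 267, 291 and 296 CPM in single-dose 1 to 5, and 357, 337, 245, 377 and 288 CPM in control 1 to 5, so its 3 groups overlapped. In the comparison by library name RPL3L rose by 0.91 (SE 0.19, adjusted p = 0.00628 by edgeR), while RPL3 had a value of 0.35 (SE 0.15, adjusted p = 0.135 by edgeR).

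The log2 ratio of RPL3L to RPL3 was tested directly, by two-sided exact permutation tests chosen after the values were seen, in a family of 35 tests over 5 paralogue pairs. It averaged -1.11 ± 0.58 (SD, n = 7) in multidose and -1.75 ± 0.27 (SD, n = 5) in controls, a difference of 0.64 (exact permutation p = 0.048, adjusted p = 0.25). In the M8 and M9 libraries the difference was 0.43 (exact permutation p = 0.286, adjusted p = 0.526). Single dose exceeded control by 0.53 (exact permutation p = 0.0952, adjusted p = 0.321), and the M1 libraries exceeded the others by 0.68 (exact permutation p = 0.0213, adjusted p = 0.187). The last test takes no account of dosing group, and within multidose the difference was 0.36 (exact permutation p = 0.286, adjusted p = 0.526). None of these passed after adjustment.

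**Figure D5:**
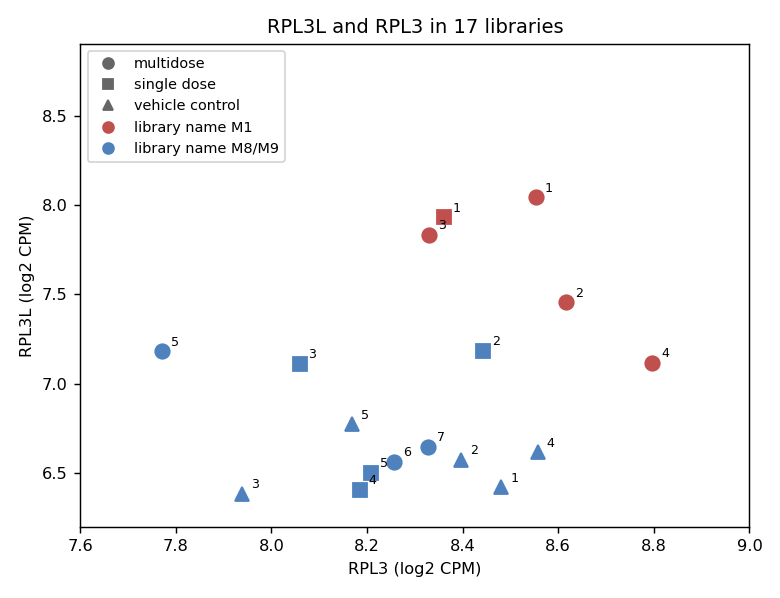
RPL3L (log2 CPM, vertical axis) against RPL3 (log2 CPM, horizontal axis) in the 17 libraries, by dosing group, with M1 libraries marked. The 5 controls lie low on the RPL3L axis, between 83.6 and 109 CPM, over much of the RPL3 range, while dosed libraries reach 264 CPM of RPL3L.

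The other pairs were compared by library name, and only the values given within multidose take account of dosing group. The log2 ratio of RPL26L1 to RPL26 was lower in the M1 libraries, at -4.67 ± 0.21 (SD, n = 5) against -3.69 ± 0.27 (SD, n = 12), with no overlap. The difference was -0.97, and -1.03 within the multidose group. This ratio was tested in the same family as the other pairs. RPL26 is the member with the largest difference in these libraries, so those tests are not separate support. Only the values are given here, as a description. The ratio of RPL7L1 to RPL7 differed by -0.45 (exact permutation p = 0.00323, adjusted p = 0.0566), and within multidose by -0.52 (exact permutation p = 0.0571, adjusted p = 0.25), the smallest p that 35 regroupings allow. That of RPS27L to RPS27 differed by -0.40 (exact permutation p = 0.0168, adjusted p = 0.187), and within multidose by -0.55 (exact permutation p = 0.171, adjusted p = 0.462). RPL7 and RPS27 were themselves called higher by library name, so the tests of their ratios are not separate support. The ratio of RPL36AL to RPL36A differed by -0.15 (exact permutation p = 0.281, adjusted p = 0.526). RPS27L (ENSSSCG00000023158), a paralogue induced by p53, had a difference of 0.11 by library name (SE 0.22, adjusted p = 0.766 by edgeR), RPL36AL one of 0.53 (SE 0.21, adjusted p = 0.0976 by edgeR) and RPS19BP1 (ENSSSCG00000060019) one of 0.02 (SE 0.15, adjusted p = 0.936 by edgeR). These 3 genes were therefore not called higher in the M1 libraries.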

How the data were processed

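The members, gene lists and tests were chosen with earlier results of these data known. RNA was isolated with TRIzol and sequenced on an Illumina NextSeq, per the labels' protocols. The authors deposited raw counts per Ensembl gene, and the tools, per the submitters' processing notes, were HISAT2 2.1.0, Subread 1.6.2, SAMtools 1.7, Trimmomatic 0.33 and FastQC 0.11.7, on Sscrofa11.1. The strand setting was not given in the sources used here, nor was the annotation release, so overlapping antisense genes cannot be separated.

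From the counts, genes were filtered with filterByExpr and scaled with TMM in edgeR 4.0.16 (R 4.3.3), and fitted with the robust quasi-likelihood method over all 17 libraries, with 1 coefficient per group and, for library names, an M1 term. P-values are two-sided and adjusted over 15884 genes (threshold 0.05). CPM uses TMM-scaled totals and log2 CPM a prior count of 2. CPM is not scaled for length, so levels of different genes were not compared. Differences within groups are of mean log2 CPM. Ratios of paralogues were tested with scipy by exact permutation. The calculation was tested on simulated data.

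Named genes were the 4 with the largest and 4 with the smallest M1 difference, the 3 with the smallest p per dosing comparison, the 3 with the highest and the 3 with the lowest mean CPM, paralogue pairs, genes with known roles and, from other lists, the 2 with the smallest p per direction; RPL35A, RPS15A, RPS26, RPL35, EIF3A, RPL14 and RPS2 were named after their values were seen. Some genes that this rule names are not reported here and are not drawn, but all counts and medians include them. Positions are RefSeq's on Sscrofa11.1, matched by symbol for all 59 members. Of 18030 rows without a symbol, 119 were named by a separate reference list of gene names, matched by Ensembl identifier. Protein lengths were not used here, so genomic span took their place. Alternatives were RLE and upper-quartile scaling, scaling without the members, no low-count filter or 1 CPM in 5 libraries, no robust spread, DESeq2 1.42.0, limma-voom (limma 3.58.1), thinning, covariates, subsets of libraries, a replicate block and leaving out each library.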

Additional observations from a re-analysis of the deposited data

Results flagged for a closer look

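Within the controls, control 3 lay far from the rest by its gap to the nearest library relative to the group's range. Its median member stood at -1.22 on the centred log2 CPM scale, against -0.21 in the nearest control. The same library was set apart in RPL22 (6.03 log2 CPM, nearest 7.37), RPL24 (7.32, nearest 8.41), RPL27A (7.79, nearest 8.80) and RPS6 (8.21, nearest 9.10). Tested over all 58 members, 31 placed control 3 apart in this way, 3 placed single-dose 1 apart among the single-dose libraries (RPL22, RPL26 and RPL6), and 0 set a library apart within multidose. Single-dose 1 measured 8.62 log2 CPM for RPL22 (nearest 7.71) and 9.37 for RPL26 (nearest 8.44), and its log2 ratio of RPL26L1 to RPL26 was -4.72 (nearest -3.87). Chance flags about 1 in 20 groups, and the members move together, so these are not separate events.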

How the results depend on the processing

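No member passed in any dosing comparison under any setting run (0 called throughout, DESeq2 and limma-voom included). For multidose against control 25 members by DESeq2 and 44 by limma-voom had an unadjusted p under 0.05, and for multidose against single dose 0 and 18. The shares of all genes at that level by these tools are not given here, so the counts cannot be read as particular to the members. The median for multidose minus control, 0.47, was 0.007 with an M1 covariate, -0.0139 in M8 and M9 libraries, -0.1567 in these without control 3, -0.1531 in those with the suffix _R, -0.1558 with an M1 covariate without control 3, -0.0039 with the log2 total count as covariate and 0.17 without the 4 libraries under 25000000 counts. Leaving out 1 library gave 0.30 to 0.57 for it, 0.09 to 0.35 for single dose minus control and 0.10 to 0.38 for multidose minus single dose. For the fits in the next sentence the shares of all genes called are not given here. The 40 members called for M1 were 31 to 53 under other scalings, filters, tools, the suffix covariate, multidose alone, no group term and thinning, and 11 to 49 with 1 library left out. They were 0 with a replicate block (median 0.66), 0 with the log2 total count covariate and 0 without the 4 libraries under 25000000 counts, where 11, 37 and 10 of all genes were called. The cause was not tested. Nothing in the labels says that replicate numbers pair the animals. The deviations of 15 same-numbered pairs had correlations of -0.218 to 0.407 (median -0.019). These were not compared with other pairs, so they do not decide whether the numbers pair animals. With mitochondrially encoded genes out of the total, the members' share of counts was 3.63% in multidose, 3.24% in single dose and 2.71% in control, and 4.37% in M1 against 2.77% in M8 and M9 libraries.

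Signs turned for RPL22 in multidose minus control (-0.1576, M8 and M9 with _R) and single dose minus control (-0.0332 in M8 and M9 without control 3, -0.0385 with _R, -0.0155 with the M1 covariate without control 3), RPL3L in multidose minus control (-0.0022, _R), RPS9 in single dose minus control (-0.0316 in M8 and M9 without control 3, -0.0369 with _R) and RPL38 in multidose minus single dose (-0.0655, _R). By library name they turned for RPS15 (-0.0461 block, -0.0609 total count), RPS27L (-0.1945 block, -0.0024 without single-dose 1 with 0.3709 as its highest value when 1 library was left out, -0.1178 total count), RPLP0 (-0.0853 total count, -0.1236 shallow libraries out) and RPLP1 (-0.0823 block). RPS19BP1 turned to -0.03 in multidose alone, -0.0666 with the suffix, -0.047 with the block, -0.037, -0.0647 and -0.031 without single-dose 1, multidose 6 or multidose 7 (up to 0.2334 with another library left out), -0.2898 with the total count and -0.1602 without the shallow libraries. Of the remaining values of single genes 895 kept their direction and side of the threshold, 67 lost a call and 10 gained one. Summing over repeated symbols gave no value, since no symbol repeats. With the lowest member count at 414, the spread between animals, and the 1 single-dose M1 library, limit precision more than counting does.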
